A study of Brassica oleracea var. capitata with 6 samples.

Results

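The *nwgl* cabbage (*Brassica oleracea* var. *capitata*) is a glossy mutant whose leaves carry little of the cuticular wax that coats wild-type leaves. Described here are the annotated genes whose RNA was present in every wild-type leaf library and nearly absent from every *nwgl* leaf library. A gene was called silent when it was listed at 0.5 FPKM or more in each of the 3 wild-type libraries and under 0.1 FPKM in each of the 3 *nwgl* libraries. FPKM is the number of fragments scaled to the length of a transcript and to the mapped fragments of a library, so levels are per length and can be set side by side between genes. The rule found 26 genes among 27024 annotated genes, in a table of 31497 entries that also holds 4473 new loci assembled from the reads. The members were chosen by their levels in these same libraries, so those levels are given as a description, and a fit over all genes that includes them is not read as a test of them. The genes *Bol018400* to *Bol018600*, whose IDs surround the mapped interval of the mutant locus, were left out, and none of the 162 listed among them met the limits.

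The 6 libraries were made from total RNA of leaves at harvesting stage, 3 biological replicates for the wild-type and 3 for *nwgl*, with no treatment. The *nwgl* plant arose in the inbred line G287 and its phenotype is inherited as a dominant trait of a single locus, so all *nwgl* libraries represent 1 mutant line. The labels do not say whether a replicate is 1 plant or a pool. The relative depths of the libraries were read from the steps between low FPKM values, on the assumption that no pair of libraries differs by more than 1.4-fold. They lay within 1.14-fold of each other on that assumption, with wild-type replicate 3 the shallowest and *nwgl* replicate 2 the deepest. The total number of fragments is unknown. In wild-type replicate 3, 21 annotated genes were listed at 0 while at 0.5 FPKM or more in the other 5 libraries, against 2 to 4 such genes in each of the other 5 libraries. An entry of 0 is therefore given as listed at 0, and no fold is read for a gene whose *nwgl* entries are all 0, where a fitted log2 value depends on the constant added.

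Plant leaves are covered by a cuticle of cutin and wax, and the wax is built from very long chain fatty acids that epidermal cells elongate and turn into alkanes, aldehydes, alcohols and ketones. Steady-state RNA reflects both transcription and decay, and in a whole leaf it is an average over all cell types, so that fewer cells of a type and less RNA per cell cannot be told apart. *Brassica* genomes hold many related gene copies, a part of them left by ancient genome duplications. Reads of copies that are nearly alike can be assigned to one or the other, so the level of any single copy is uncertain where a close copy exists. The files list genes by ID only, and 0 of all 27024 annotated IDs, the 26 included, were matched in the RefSeq gene table for this species. The genes are therefore described by ID, and leaf markers could not be checked by name.

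Together the 26 genes summed to 51.0, 77.9 and 57.3 FPKM in wild-type replicates 1, 2 and 3 and to 0.245, 0.423 and 0.45 FPKM in *nwgl* replicates 1, 2 and 3. Their mean wild-type levels ran from 0.707 to 13.8 FPKM with a median of 1.83 FPKM. These are low levels for a leaf-expressed gene. The 15201 annotated genes that reached 0.5 FPKM in each wild-type library had a median of 5.52 FPKM, and only 14.1% of them lay under the median of the silent genes. By wild-type mean, 5 silent genes were under 1 FPKM, 15 lay from 1 to 3 FPKM and 6 were at 3 FPKM or more. One gene, *Bol043596*, stood above 5 FPKM.

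**Figure D1:**
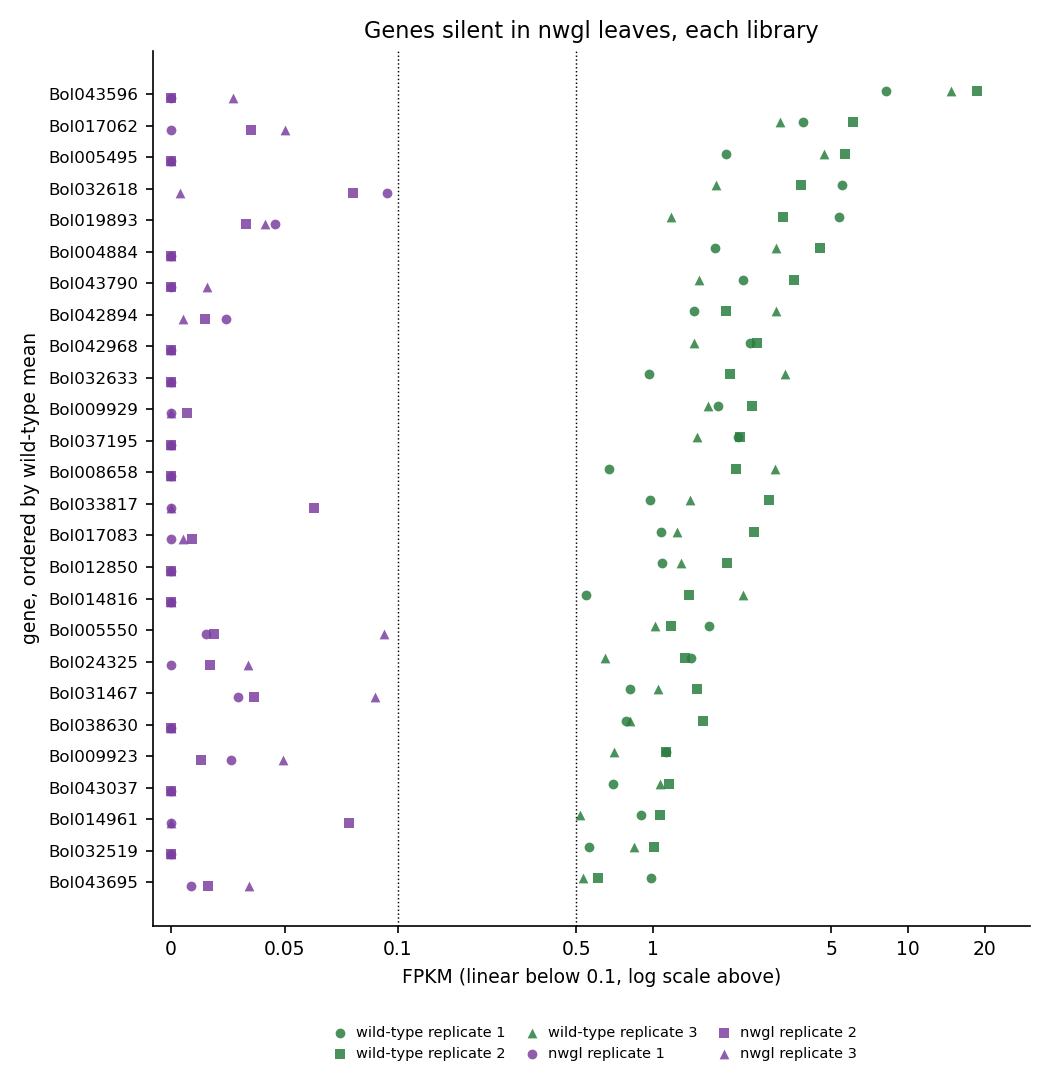
FPKM of the 26 silent genes in each of the 6 libraries, with genes ordered by wild-type mean (green, wild-type; purple, *nwgl*; a marker shape for each replicate). The dotted lines mark the limits of the rule at 0.1 and 0.5 FPKM, and the axis is linear below 0.1 and logarithmic above it. *Bol043596* at the top reached 8.23 to 18.6 FPKM in wild-type, and 11 genes had all 3 *nwgl* markers at 0.

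*Bol043596* had the highest wild-type level of the set. It was at 8.23, 18.6 and 14.7 FPKM in wild-type replicates 1, 2 and 3. In *nwgl* it was listed at 0 in replicates 1 and 2 and at 0.0274 FPKM in replicate 3. Its lowest wild-type library was 300.6 times its highest *nwgl* library, the widest gap of the 15 silent genes that had any signal in *nwgl*. Even so, 20.4% of the genes expressed in every wild-type library had a higher wild-type mean.

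The next level was held by *Bol017062*, at 3.89, 6.09 and 3.14 FPKM in wild-type and at 0, 0.0353 and 0.0503 FPKM in *nwgl*. *Bol032618* was at 5.52, 3.82 and 1.76 FPKM in wild-type and at 0.0954, 0.0802 and 0.00393 FPKM in *nwgl*. *Bol019893* was at 5.34, 3.24 and 1.17 FPKM in wild-type and at 0.0456, 0.0329 and 0.0414 FPKM in *nwgl*. The last of these had signal in every *nwgl* library, so its RNA was much reduced but still detected. *Bol043790* was at 2.25, 3.57 and 1.51 FPKM in wild-type, and only *nwgl* replicate 3 had any signal, 0.0156 FPKM. *Bol042894* was at 1.45, 1.93 and 3.05 FPKM in wild-type and at 0.0241, 0.0147 and 0.00518 FPKM in *nwgl*. Of the 6 genes with a wild-type mean of 3 FPKM or more, all but *Bol043596* had wild-type ranges that overlapped, so their order is within their spread.

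Of the 26 genes, 11 were listed at 0 in all 3 *nwgl* libraries. The highest of them in wild-type was *Bol005495*, at 1.93, 5.66 and 4.69 FPKM. *Bol004884* followed at 1.76, 4.50 and 3.04 FPKM. *Bol042968* was at 2.4, 2.55 and 1.45 FPKM. All 3 were among the 10 silent genes with the highest wild-type means, so an entry of 0 in *nwgl* was not limited to the genes of lowest wild-type level. *Bol032633* was at 0.965, 2.0 and 3.3 FPKM in wild-type. *Bol037195* was at 2.15, 2.18 and 1.48 FPKM. *Bol008658* was at 0.672, 2.11 and 3.0 FPKM. These 3 genes were alike in mean level but not in pattern, as *Bol037195* was lowest in wild-type replicate 3 while the other two were highest there.

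The remaining 5 genes at 0 throughout *nwgl* were lower in wild-type leaves. *Bol012850* was at 1.09, 1.95 and 1.28 FPKM in wild-type replicates 1, 2 and 3. *Bol014816* was at 0.546, 1.39 and 2.25 FPKM. *Bol038630* was at 0.782, 1.57 and 0.814 FPKM. *Bol014816* was the only one of the 5 that was highest in replicate 3. *Bol043037* was at 0.698, 1.16 and 1.07 FPKM. *Bol032519* was at 0.560, 1.01 and 0.844 FPKM. Both genes stayed close to the minimum of the rule, and their *nwgl* entries of 0 rest on a wild-type level of about 1 FPKM or less.

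The other 15 genes had signal in at least 1 *nwgl* library. Of these, 7 had signal in all 3 *nwgl* libraries, 3 were at 0 in 1 library and 5 were at 0 in 2. Across all 26 genes, 19 were at 0 in *nwgl* replicate 1, 13 in the deepest *nwgl* library, replicate 2, and 14 in replicate 3. *Bol009929* was at 1.80, 2.44 and 1.64 FPKM in wild-type and had signal only in *nwgl* replicate 2, at 0.00691 FPKM. *Bol033817* was at 0.974, 2.85 and 1.4 FPKM in wild-type and at 0.0628 FPKM in *nwgl* replicate 2 alone. *Bol014961* was at 0.898, 1.06 and 0.519 FPKM in wild-type and at 0.0785 FPKM in *nwgl* replicate 2 alone. In these 3 genes the deepest *nwgl* library was the one with signal. In *Bol043596* and *Bol043790*, the other genes with signal in a single *nwgl* library, it was replicate 3.

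*Bol017083* was at 1.08, 2.49 and 1.25 FPKM in wild-type and at 0, 0.00934 and 0.00503 FPKM in *nwgl*. *Bol024325* was at 1.41, 1.34 and 0.646 FPKM in wild-type and at 0, 0.017 and 0.0341 FPKM in *nwgl*. Both were at 0 in *nwgl* replicate 1 only. *Bol009923* was at 1.13, 1.13 and 0.706 FPKM in wild-type and at 0.0263, 0.0133 and 0.0492 FPKM in *nwgl*. *Bol005550* was at 1.66, 1.17 and 1.02 FPKM in wild-type and at 0.0155, 0.0189 and 0.0936 FPKM in *nwgl*. *Bol031467* was at 0.811, 1.49 and 1.04 FPKM in wild-type and at 0.0297, 0.0366 and 0.0899 FPKM in *nwgl*. In the last 3 genes *nwgl* replicate 3 was the highest, and the lowest wild-type library was still at least 9.03 times the highest *nwgl* library.

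Within the wild-type, the spread of the silent genes was close to that of other expressed genes. The coefficient of variation over the 3 wild-type libraries had a median of 37.6% and ran from 20.3% to 64.1%, beside a median of 37.3% over all 15201 genes expressed in every wild-type library. The largest spread was that of *Bol019893*, *Bol014816* and *Bol008658*, at 64.1%, 61.1% and 61.0%. The smallest was that of *Bol037195*, *Bol009929* and *Bol009923*, at 20.3%, 21.6% and 24.6%. The silent genes were not all highest in the same wild-type library. Wild-type replicate 2 was the highest library for 17 of them, replicate 1 for 5 and replicate 3 for 4, or 65.4%, 19.2% and 15.4%. Over all genes expressed in wild-type the shares were 50.8%, 39.1% and 10.05%. The wild-type libraries also differed in the general height of their FPKM values. Median-of-ratios factors, which would bring libraries to a common scale, were 1.03, 1.24 and 0.791 for replicates 1, 2 and 3. The spreads and the highest libraries given here were taken without such scaling and include this difference. *Bol008658*, *Bol014816*, *Bol032633* and *Bol042894* were the 4 genes highest in replicate 3, and all 4 were lowest in replicate 1.

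The limits of the rule cut through a continuous range of levels. Among genes at 0.5 FPKM or more in each wild-type library, the highest *nwgl* library was under 0.1 FPKM in 26, from 0.1 to 0.2 FPKM in 18, from 0.2 to 0.5 FPKM in 115 and from 0.5 to 1 FPKM in 464. Just inside the *nwgl* limit were *Bol032618*, *Bol005550* and *Bol031467*, whose highest *nwgl* values were 0.0954, 0.0936 and 0.0899 FPKM. Just outside were *Bol022374*, *Bol022889* and *Bol021489*, at 0.105, 0.111 and 0.118 FPKM. Just inside the wild-type minimum were *Bol014961*, *Bol043695* and *Bol014816*, whose lowest wild-type values were 0.519, 0.533 and 0.546 FPKM. Just outside were *Bol012100*, *Bol033789* and *Bol033197*, at 0.476, 0.467 and 0.443 FPKM. The count depends on these limits and on single libraries. A minimum of 1 FPKM in wild-type left 14 genes, a minimum of 0.25 FPKM gave 52, and without wild-type replicate 3 the rule gave 42. Leaving out a library removes a condition of the rule, so the count could then only stay or rise.

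**Figure D2:**
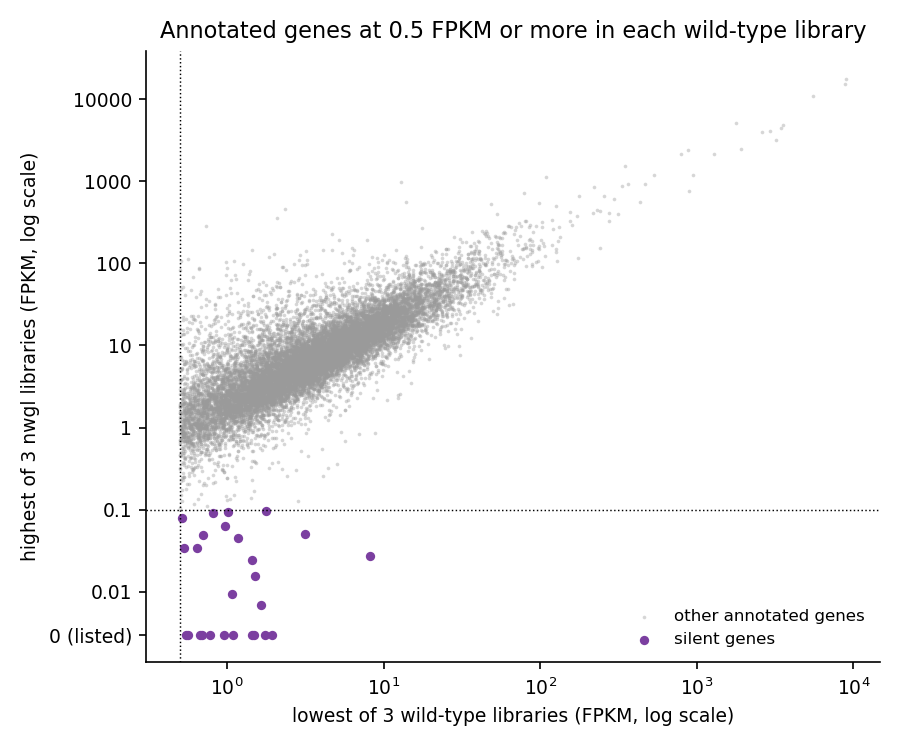
Each point is an annotated gene at 0.5 FPKM or more in every wild-type library, placed by its lowest wild-type value (x axis, FPKM, log scale) and its highest *nwgl* value (y axis, FPKM, log scale, with genes listed at 0 drawn at the bottom). The 26 silent genes (purple) lie below the dotted line at 0.1 FPKM, with 18 genes from 0.1 to 0.2 FPKM just above them, and all but *Bol043596* and *Bol017062* had a lowest wild-type value under 2 FPKM.

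The same rule with the genotypes exchanged found more genes. It gave 134 annotated genes silent in wild-type leaves and at 0.5 FPKM or more in every *nwgl* library. As a share of the genes expressed in every library of the other genotype, this was 0.847% of 15813 genes, beside 0.171% for the genes silent in *nwgl*. The entry was 0 in every wild-type library for 38 of the 134 genes. The median *nwgl* mean of the 134 was 2.3 FPKM. Among new loci the rule gave 29 silent in *nwgl* and 48 silent in wild-type. Among the 4459 long non-coding RNAs (lncRNAs), transcripts without coding potential, it gave 9 and 26. The larger number was thus on the side of silence in wild-type in each of the 3 classes. New loci and lncRNAs were assembled from the same reads, and several lncRNA transcripts can come from the same locus. Overlap between these classes was not checked, so they are not read as separate results. Shares of expressed entries were not computed for new loci and lncRNAs. The whole table leaned the same way, as the limma fits described below called 897 genes and new loci higher in *nwgl* and 293 lower. For lncRNAs the calls were 45 and 20. Without *nwgl* replicate 3, 249 annotated genes were silent in wild-type, and without wild-type replicate 3, 42 were silent in *nwgl*, where a count could only stay or rise. The counts by the rule are descriptions and were not tested.

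The comparison of the genotypes across all genes was made with limma on log2(FPKM + 0.1), a scale that understates the change of low genes. Calls needed an adjusted p (Benjamini-Hochberg) below 0.05 together with a log2 difference of 1 or more either way. Of 24332 genes and new loci tested, 1.2% were called lower in *nwgl* and 3.69% higher. All 26 silent genes were tested and all 26 were called lower, with log2 fold changes from -6.93 for *Bol043596* to -2.72 for *Bol043695*. Since the rule used the same contrast, this count says nothing beyond the choice of the genes. Over the 15 silent genes with signal in *nwgl* the median was -3.93, beside -0.04 for all genes tested, and it moved to -1.37 with a pseudocount of 1 and to -6.04 with 0.01, so its size reflects the pseudocount.

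The silent genes did not form runs along the gene IDs at gaps of at most 5 numbers. In the interval to which the mutant locus was mapped, consecutive IDs are consecutive genes. Whether this holds beside every silent gene was not checked here. No 2 silent genes lay within 5 ID numbers of each other. The closest pair was *Bol009923* and *Bol009929*, 6 numbers apart. One listed gene between them, *Bol009924*, was at 0.352, 1.32 and 0.06 FPKM in wild-type and at 0, 0 and 0.0449 FPKM in *nwgl*. It failed the wild-type minimum in 2 of 3 libraries, and its difference did not pass the test (log2 difference -2.05 ± 0.80, limma standard error, adjusted p = 0.228). Among the 134 genes silent in wild-type, 25 lay in 11 runs with gaps of at most 5 ID numbers, and the longest run had 3 genes. A larger set holds more pairs that can lie close together, and the number of runs to be expected in either set was not computed. The absence of runs is therefore read as no trait of the genes silent in *nwgl*.

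Over longer distances, 16 of 42 stretches of 1000 ID numbers held a silent gene. The stretch from *Bol042000* to *Bol043999*, picked after the positions were seen, held 6 of the 26 (23.1%) beside 5.80% of the listed annotated genes. These 6 were *Bol042894*, *Bol042968*, *Bol043037*, *Bol043596*, *Bol043695* and *Bol043790*. Without the 6, 13 of the 1238 genes tested in it were called lower (1.05%). Over all tested genes and new loci without the 26, the share was 1.10%. The share over annotated genes alone was not computed, so these shares are not like for like. The stretch also held 13 of the 134 genes silent in wild-type. A share above its 5.80% of the listed genes was thus seen for both sets and was not particular to the genes silent in *nwgl*.

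**Figure D3:**
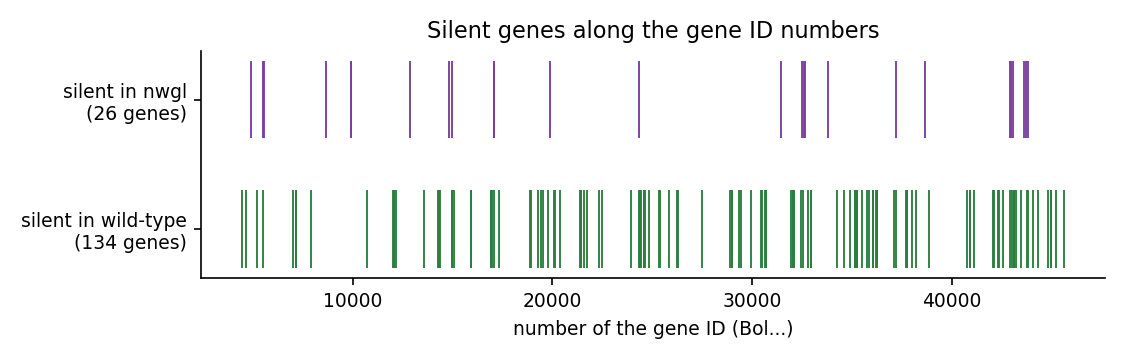
Position of the 26 genes silent in *nwgl* (purple) and the 134 genes silent in wild-type (green) along the numbers of the gene IDs, 1 line for each gene. The purple lines are scattered, with 6 of them between the numbers 42000 and 43999.

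Genes beside the silent genes were not chosen by the rule, so they could be tested. The nearest listed gene on each side, within 5 ID numbers, gave 51 neighbours, of which 40 were tested. Of these 40, 2 were called lower (5%, beside 1.2% over the whole table) and 3 were called higher (7.5%, beside 3.69%). The counts are too small to read a difference from other genes. The whole table also holds new loci, whereas the neighbours are annotated genes only. The median log2 fold change of the tested neighbours was -0.12. Of the 26 silent genes, 20 had at least 1 neighbour at 0.5 FPKM or more in all 6 libraries, and 6 had such a neighbour on each side. Of the 51 neighbours, 26 were at this level. It is a common level, as 15201 of 27024 annotated genes reached it in each wild-type library and 15813 in each *nwgl* library. The share of all genes that reached it in all 6 libraries was not computed, so the counts are read as no trait of the silent genes.

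*Bol043596* gave an example, since its neighbour *Bol043595* was at 12.3, 20.9 and 13 FPKM in wild-type and at 11.5, 15.6 and 13.7 FPKM in *nwgl*. The neighbour had a level like that of *Bol043596* in wild-type and kept it in *nwgl*, with a log2 difference of -0.14 ± 0.38 (limma standard error). *Bol032519* lay between *Bol032518*, at 9.93 to 16.2 FPKM in wild-type and 12.05 to 16.2 FPKM in *nwgl*, and *Bol032520*, at 1.67 to 4.36 FPKM and 1.78 to 2.39 FPKM. The genotypes overlapped in both neighbours.

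The 2 neighbours that were called lower lay next to *Bol043037* and *Bol017083*. *Bol043038* was at 4.05, 4.52 and 5.13 FPKM in wild-type and at 0.265, 0.554 and 0.525 FPKM in *nwgl*. On the log2 scale it fell by 3.13 ± 0.42 (limma standard error), with an adjusted p of 0.0035. The genotypes did not overlap, and the gene stayed above the limit of the rule in every *nwgl* library. *Bol017082* was at 11.2, 5.71 and 5.69 FPKM in wild-type and at 1.65, 1.02 and 1.46 FPKM in *nwgl*, a log2 difference of -2.32 ± 0.42 (limma standard error) with an adjusted p of 0.0146. This call was lost without wild-type replicate 1, *nwgl* replicate 1 or *nwgl* replicate 2, where the adjusted p was 0.0518, 0.0625 and 0.0626 and 1 neighbour remained called lower. Another lowered gene, *Bol043693*, lies 2 numbers before *Bol043695* and was named after its values were seen. It was at 11.0, 13.8 and 5.88 FPKM in wild-type and at 0.697, 2.76 and 0.24 FPKM in *nwgl* (log2 difference -3.41 ± 0.72, limma standard error, adjusted p = 0.0284), and its call was lost without wild-type replicate 1, wild-type replicate 2 or *nwgl* replicate 1 and with no filter on low values.

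Genes raised in *nwgl* also stood beside silent genes. *Bol017061*, the neighbour of *Bol017062*, was listed at 0 in all 3 wild-type libraries and at 7.02, 5.17 and 0.77 FPKM in *nwgl* (adjusted p = 0.0065 from limma). The gene before it, *Bol017060*, was at 0.312, 0 and 0 FPKM in wild-type and at 2.59, 3.28 and 2.61 FPKM in *nwgl*. *Bol017059* was at 0.61, 0.0635 and 0.00968 FPKM in wild-type and at 1.99, 1.33 and 2.27 FPKM in *nwgl*. These 3 genes in a row were called higher, the last named with an adjusted p of 0.0403 from limma and only under 5 of the 14 other settings of the fit. The next gene in the order after *Bol017061*, *Bol017062*, went from 3.14 FPKM or more in wild-type to 0.0503 FPKM or less in *nwgl*. *Bol019892*, the neighbour of *Bol019893*, was at 0.157, 0.278 and 0.106 FPKM in wild-type and at 2.02, 2.4 and 2.23 FPKM in *nwgl*, a log2 difference of 3.09 ± 0.45 (limma standard error) with an adjusted p of 0.00527. *Bol042970*, beside *Bol042968*, was at 0.0648, 0.267 and 0.0411 FPKM in wild-type and at 9.87, 11.1 and 0.474 FPKM in *nwgl*. Its *nwgl* replicate 3 stood far below the others, and its call (adjusted p = 0.0494 from limma) was lost under 11 of the 14 other settings of the fit.

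Near *Bol014961*, *Bol014956* was at 0.0155, 0.0176 and 0 FPKM in wild-type and at 0.887, 1.41 and 1.74 FPKM in *nwgl*. *Bol014957* was at 0.0474, 0.0629 and 0.0203 FPKM in wild-type and at 1.63, 3.78 and 2.61 FPKM in *nwgl*. On the other side, *Bol014963* was at 3.32, 4.85 and 3.12 FPKM in wild-type and at 17.4, 24.9 and 12.2 FPKM in *nwgl*. Lowered and raised genes thus lay within a few ID numbers of each other there. Over the 115 tested genes within 3 listed places of a silent gene, a window set after the values were seen, 3 (2.61%) were called lower and 10 (8.70%) higher, beside 1.2% and 3.69% over the whole table. Several of the 10 calls depended on the settings of the fit, as *Bol042970* lost its call under 11 of 14, *Bol017059* under 9 of 14, *Bol043034* under 9 of 13 and *Bol014963* under 3 of 14. With *Bol017061*, *Bol014956* and *Bol014957* were the only genes silent in wild-type that lay within 5 ID numbers of a gene silent in *nwgl*.

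**Figure D4:**
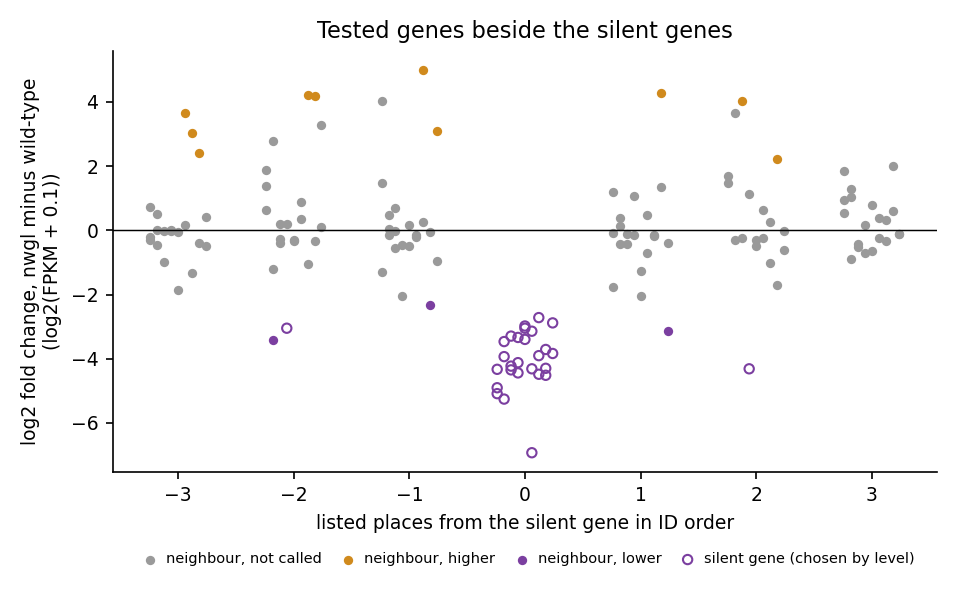
Log2 fold change (*nwgl* minus wild-type, on log2(FPKM + 0.1)) of the tested genes at 1 to 3 listed places on either side of each silent gene in ID order. Open circles are silent genes, whose values depend on the constant of 0.1 where *nwgl* is at 0, grey points are neighbours that were not called, orange points were called higher and filled purple points lower. Most neighbours lay near 0, while 3 were called lower and 10 higher.

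One silent gene appears in the pathway lists that the study made from its lowered genes. *Bol043695* is listed there under starch and sucrose metabolism, the set of enzymes that interconvert the leaf's storage and transport carbohydrates. It was at 0.979, 0.609 and 0.533 FPKM in wild-type and at 0.00858, 0.0163 and 0.0343 FPKM in *nwgl*. It had the lowest wild-type mean of the 26 genes, 0.707 ± 0.239 FPKM (SD, n = 3). The list holds 6 genes and was chosen by the study on these libraries, so its direction is not independent evidence.

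All 6 genes of this list were tested. *Bol043695* and *Bol029542* were called lower, and the other 4 did not pass, while 1.2% of all tested genes and new loci were called lower. Without *Bol043695*, which the rule chose, the count was 1 of 5. Under median-of-ratios scaling, quantile normalization or the replicate block, 4 of the 6 were called. *Bol029542* was at 4.21, 3.28 and 5.36 FPKM in wild-type and at 0.473, 0.969 and 0.344 FPKM in *nwgl* (log2 difference -2.73 ± 0.46, limma standard error, adjusted p = 0.0108). Without *nwgl* replicate 1 neither gene was called, with an adjusted p of 0.0642 for *Bol029542* and 0.0896 for *Bol043695*. The latter also lost its call without wild-type replicate 1, wild-type replicate 2 or *nwgl* replicate 2 and with a pseudocount of 1, that is under 5 of 13 other settings counting *nwgl* replicate 1. The log2 fold changes of *Bol010233*, *Bol018118*, *Bol033172* and *Bol040770* were -1.53, -1.63, -1.96 and -1.59, with adjusted p from 0.0504 to 0.14 from limma. Every gene of the list but *Bol043695* and *Bol040770* stayed above 0.3 FPKM in each *nwgl* library. None of the 26 silent genes is in the lists of pathways of raised genes, as the rule, which takes genes low in *nwgl*, had fixed in advance.

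The study also listed genes within 100 kb of each lncRNA it had found to differ between these libraries. Of the 26 silent genes, 2 (7.69%) are on that list, beside 5.08% of all listed annotated genes. The latter share rests on 1374 genes counted on the list, more than the number of such target genes stated in the study's text. *Bol033817* is paired with the lncRNA MSTRG.67492.6. The lncRNA was listed at 0 in all 3 wild-type libraries and at 10.1, 9.63 and 6.85 FPKM in *nwgl*, a mean of 8.86 ± 1.76 FPKM (SD, n = 3). It was called higher in a limma fit over 2340 lncRNAs (adjusted p = 0.000789), in which 1.92% were called higher and 0.855% lower. Where this lncRNA was present its gene was nearly absent, and the reverse held in wild-type leaves.

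*Bol017062* is paired with MSTRG.64884.1. This lncRNA was listed at 0 in all 3 wild-type libraries and at 0.312, 0.0763 and 0.475 FPKM in *nwgl*, and it did not pass the test (adjusted p = 0.245 from limma). Its level was far below that of its gene in wild-type. Of the 2 lncRNAs paired with silent genes, 1 was called higher and 0 were called lower by limma, and neither had a level in *nwgl* below that in wild-type. The study picked these lncRNAs because they differed in the same libraries, so the opposite direction is a description of the 2 pairs.

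**Figure D5:**
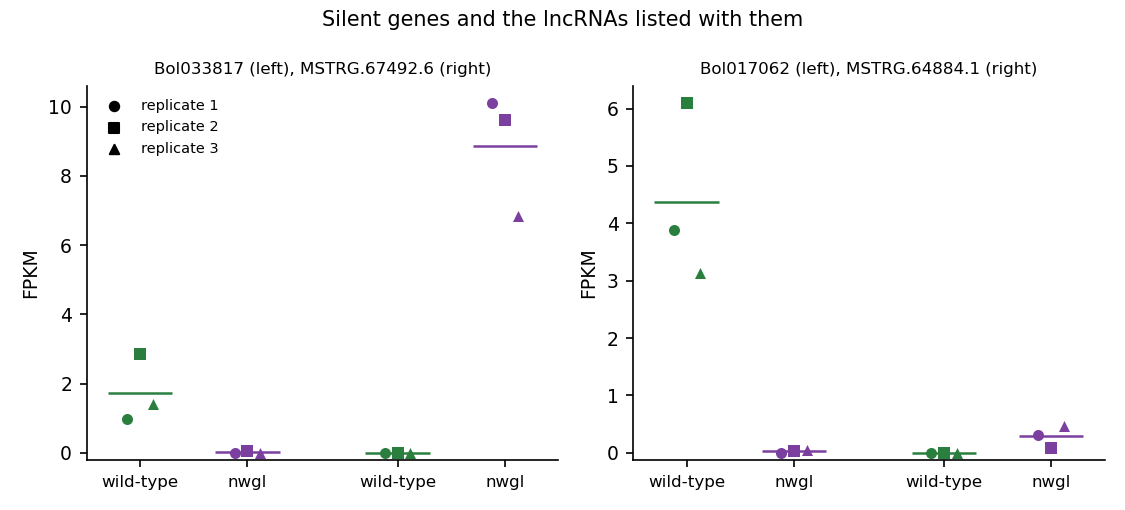
FPKM of the silent genes *Bol033817* and *Bol017062* (left of each panel) and of the lncRNAs listed with them (right of each panel) in wild-type (green) and *nwgl* (purple) leaves. Markers are single libraries and bars are means of 3. MSTRG.67492.6 reached 6.85 to 10.1 FPKM in *nwgl*, whereas MSTRG.64884.1 stayed at or under 0.475 FPKM.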

How the data were processed

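Reads of 6 leaf libraries had been aligned to the cabbage genome (Bolbase) with HISAT2 and assembled with StringTie 1.3.1 by the authors, who deposited FPKM values for genes and for lncRNA transcripts. FPKM keeps no total, and fragment numbers were not derived from the clean bases that the study reports. Relative depths were read from the commonest ratio between genes under 0.3 FPKM in each pair of libraries. Only ratios up to 1.4 were considered, since steps of 1 and 2 reads give ratios that differ by a factor of 2. From 4 to 15 genes fell on the ratio, which tied with another at 4 genes for wild-type replicates 1 and 3, and the pairwise ratios were compatible to within 0.025%. The rule, the neighbours and the lists were chosen with earlier results of these data known. One limma fit (version 3.58.1, R 4.3.3, eBayes with trend) was made for genes and another for lncRNAs, on log2(FPKM + 0.1), leaving out rows whose mean was below 0.1 FPKM. This replaced a count test, since counts were not used here. P-values set the difference between the genotypes against the spread between 3 biological replicates of each, which eBayes moderates with the spread of all genes. Named are the 10 silent genes of highest wild-type mean, those nearest the limits, of largest and smallest spread, and on the study's lists. The other silent genes and some neighbours were named after their values were seen. Alternatives were other limits, pseudocounts of 1 and 0.01, other filters, quantile or median-of-ratios scaling, no eBayes trend, a replicate block, and each library left out in turn. Python 3.11.15 and matplotlib 3.10.9 were used for counts and figures.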

Additional observations from a re-analysis of the deposited data

How the results depend on the processing

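The number of silent genes was 52 with a wild-type minimum of 0.25 FPKM, 14 with 1 FPKM, 44 with a *nwgl* limit of 0.2 FPKM and 11 when 0 was required in each *nwgl* library, against 26 by the rule. With a library left out, where it could only stay or rise, it ran from 28 to 42, the latter without wild-type replicate 3. Median-of-ratios scaling gave 25 genes, 22 of them shared with the rule. Runs of silent genes numbered 0 at gaps of at most 5 ID numbers and 1 at gaps of at most 10. With a library left out, 22 to 26 of the silent genes were called lower, the fewest without *nwgl* replicate 1, and 1 to 2 of the neighbours. With a pseudocount of 1, 20 of the silent genes were called lower. A mean FPKM of at least 1 left 10 silent genes to test, all called. Neighbours called lower numbered 4 under median-of-ratios scaling and 4 under quantile normalization. The count of starch and sucrose genes called lower, a result added after seeing the data, ran from 0 to 4. Same-numbered libraries of the 2 genotypes had correlations of their deviations of -0.02, 0.11 and 0.16 over genes, so the numbers were not taken to pair the samples. With the replicate block, 26 silent genes, 3 neighbours and 0 paired lncRNAs were called lower. Single silent genes lost the call in 15 of 348 fits; their direction is fixed by the rule. Depth was read here only relative to other libraries, so no absolute bound was set for a value of 0.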
